A study of Mus musculus with 20 samples.

Results

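Cytosolic ribosomal proteins are the protein parts of the ribosome in the cytoplasm, and their messenger RNAs were followed in whole aortas of mice at 2 ages and in 2 genotypes. Members were the protein-coding genes of the deposited tables whose symbol is Rpl or Rps followed by a digit, or Rplp0, Rplp1, Rplp2 or Rpsa, without the Rps6k kinases, Rps19bp genes and pseudogenes named "-ps". The rule used only symbol and biotype, but it was set with earlier results of these data known. It gave 85 of 55421 genes, of which 46 encode a canonical protein of the large subunit, 31 encode a canonical protein of the small subunit and 8 are paralogues with another symbol (Rpl3l, Rpl7l1, Rpl10l, Rpl22l1, Rpl36al, Rpl39l, Rps27l and Rps27rt). RNA sequencing covered 20 libraries from C57BL/6 mice, 5 in each of 4 groups. These were knockout mice of 28 months, Pparafl/fl mice of 28 months, knockout mice of 2 months and Pparafl/fl mice of 2 months, called aged and young below. The knockout is written Ppara△SMC in the study design and Pparadelta_SMC in the sample labels, a deletion in smooth muscle cells of Ppara, which encodes the fatty acid-sensing nuclear receptor PPARα. The Pparafl/fl allele is a conditional one that can be deleted by Cre recombinase, and the Cre driver, the deleted exons and the sex of the mice are not given in the sources used here. The design asks how the aorta differs with age and with loss of Ppara.

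A ribosome has a large and a small subunit, each built from ribosomal RNA and many ribosomal proteins that are needed in equal numbers. In mammals the mRNAs of nearly all of these proteins start with a run of pyrimidines, the 5′ terminal oligopyrimidine (TOP) tract, through which mTORC1 and the RNA-binding protein LARP1 set their translation together. Transcripts of these genes are abundant in every cell type, and processed pseudogenes of them are scattered over the mouse genome. In the artery wall, ribosome production is known to accompany growth of smooth muscle cells.

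Values are counts per 1000000 gene counts (CPM) after trimmed mean (TMM) scaling over all 20 libraries, and replicate numbers only name libraries. Total gene counts were between 50046288 and 79385413 per library, so counting error is small for all members except those near 0, and the spread between libraries sets the precision. The labels do not say outright that each library is a different mouse, and p-values measure the spread between these libraries. Ppara itself was between 47.6 and 91.9 CPM in the aged knockout and between 24.0 and 89.97 CPM in aged Pparafl/fl. It was between 69.5 and 138 CPM in the young knockout and between 89.0 and 195 CPM in young Pparafl/fl. It was not called different between genotypes at 28 months (log2 fold change 0.11, standard error 0.31) or at 2 months (-0.33, standard error 0.25, adjusted p = 0.664, edgeR). Gene counts over whole aorta are thus a limited check of the genotype label. The smooth muscle genes Myh11 and Acta2 were detected in all 20 libraries. The tissue also held RNA of other cell types, and their marker sums moved with age. Of 10 contractile smooth muscle genes, 8 were called lower and 1 higher at 28 months in Pparafl/fl. In the knockout 4 of the 10 were called lower. Of 8 fibroblast genes, 5 were called lower with age in Pparafl/fl and 4 in the knockout. The summed CPM of the contractile genes was 340.6 to 1143 in the aged knockout, 522 to 1133 in aged Pparafl/fl, 1020 to 9468 in the young knockout and 3352 to 7793 in young Pparafl/fl, and its part in the results below was not tested. Airway epithelium markers went the other way with age. Of these markers 3 of 4 tested were called higher at 28 months in Pparafl/fl (median log2 fold change 7.202) and 2 of 5 in the knockout (5.19). Their summed CPM was 17.6 to 5490 in the aged knockout, 57.0 to 4035 in aged Pparafl/fl, 14.4 to 149 in the young knockout and 10.1 to 24.1 in young Pparafl/fl. Scgb1a1, Bpifa1 and Scgb3a2 were at 0 in at least 1 library of each young group. The aged libraries except replicate 5 of the knockout and replicate 5 of Pparafl/fl lay above all young ones, and the part of this RNA in the age results was not tested. Some cardiomyocyte (3 of 10) and B and plasma cell markers (2 of 6) were also called higher with age in Pparafl/fl. In the knockout 1 of 6 B and plasma cell markers was called higher, and all 6 were positive (median log2 fold change 2.69). Adipocyte markers were called lower in the knockout (3 of 10) and in Pparafl/fl (1 of 10), and 8 of the 10 were negative in each. Among 8 macrophage markers 1, Lyz2, was called higher in the knockout. The cardiomyocyte calls were Myl2, Nppa and Nppb, while 3 of the 10 were negative and the list's median was 0.09. Its summed CPM overlapped between ages in Pparafl/fl (464 to 2984 at 28 months, 281 to 2293 at 2 months). The B and plasma cell calls in Pparafl/fl were Igkc and Mzb1, and 3 of the 6 markers were negative there. The call in the knockout was Mzb1.

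The sequences around 6 transcription starts show the tract and how the members differ in it. They are 50 bases of RefSeq on GRCm38.p6, with 30 bases before the start and 20 from it, 5′ to 3′ on the transcribed strand, and the capitals mark the tract. The tract was searched as a C followed by at least 5 bases that are each C or T, on the transcribed strand within 20 bases either side of the start. Rpl27a and Rpl22l1 are the members called below, Rps6 is a kinase target in the small subunit, Rps27 and Rps27rt are a gene and its copy, and Rpl3l is the muscle paralogue.
Rpl27a, chr7:109519165-109519214, plus strand: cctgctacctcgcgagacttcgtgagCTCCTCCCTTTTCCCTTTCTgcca
Rpl22l1, chr3:28805478-28805527, plus strand: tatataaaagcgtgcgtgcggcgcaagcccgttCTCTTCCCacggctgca
Rps6, chr4:86857348-86857397, minus strand: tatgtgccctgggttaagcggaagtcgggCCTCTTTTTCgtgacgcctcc
Rps27, chr3:90213629-90213678, minus strand: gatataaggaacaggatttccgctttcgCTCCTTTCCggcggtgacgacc
Rps27rt, chr9:114982720-114982769, minus strand: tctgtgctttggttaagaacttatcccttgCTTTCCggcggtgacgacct
Rpl3l, chr17:24727796-24727845, plus strand: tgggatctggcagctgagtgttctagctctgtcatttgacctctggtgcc

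Rpl3l has no such run in that window. Rps27 and Rps27rt share 39 of 49 bases from the start when moved by 1 base against each other, and 5 of the 30 bases before it, so the copy resembles its parent in the transcript and not upstream. Of the 85 members, 65 had an entry in the RefSeq promoter table, and 42 of these (64.6%) held a tract, against 32.8% of 27025 genes. The letters CCGGAAG, part of the site of ETS factors such as GABPA, were sought on both strands of the 300-base window and stood in 26 of the 65 (40%), against 9.93% of the 27025 genes. Both are matches of letters and not measured starts or bound sites.

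The share of all counts on ribosomal protein genes overlapped between the 4 groups. The share in the aged knockout was 1.37, 0.97, 1.23, 2.71 and 1.38% in replicates 1 to 5. It was 1.41, 1.29, 1.10, 1.47 and 1.29% in aged Pparafl/fl. The young knockout had 1.19, 1.41, 1.52, 1.21 and 1.29%, and young Pparafl/fl had 1.54, 1.35, 1.51, 1.40 and 1.32%. Replicate 4 of the aged knockout stood above the other 19 libraries. The median was 1.37% in the aged knockout, 1.29% in aged Pparafl/fl, 1.29% in the young knockout and 1.40% in young Pparafl/fl.

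**Figure D1:**
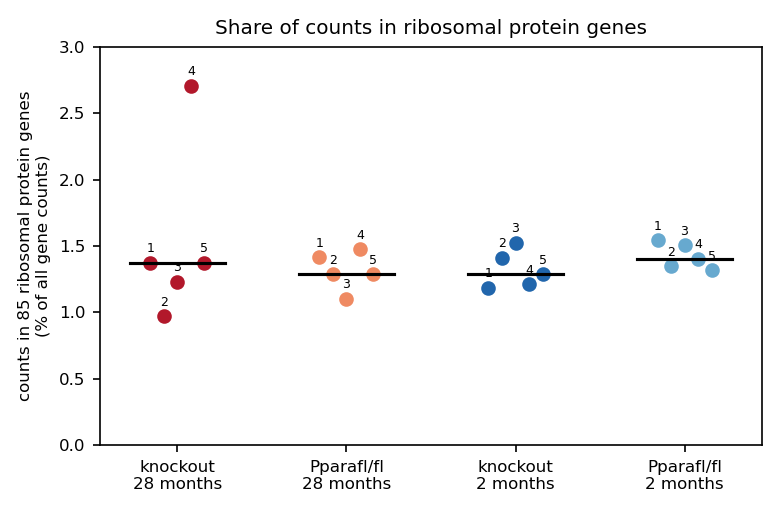
Share of all gene counts (%, y axis) that fell on the 85 ribosomal protein genes in each of 20 libraries, by group; points are libraries with their replicate number and bars are group medians. The groups overlap, and replicate 4 of the aged knockout, at 2.71%, lies above all others.

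Per kilobase of merged exons, the highest median levels over the 20 libraries included those of Rps3a1 (431 CPM per kilobase), Rplp0 (397), Rps4x (322) and Rpl13a (247). Rplp0 carries the stalk on which translation factors dock, and Rps4x is the X-linked copy of a small subunit protein. At the other end, Rpl10l, a testis paralogue of Rpl10, had no count in any library, and Rpl39l stayed at or below 0.251 CPM. These were the 2 members not tested, so 83 were tested in each comparison. Rpl3l (2.56 CPM per kilobase), Rpl21 (4.07) and Rpl35a (6.64) were the next lowest. The length chosen matters for this order: by the length of 1 principal transcript per gene the top member was Rps4x (539 CPM per kilobase), followed by Rps14 (516), and Rpl35a was at 47.7. The share of a gene's 50-base exon words that also occur in another gene had a median of 50.6% over the members, and was between 0% for Rpl3l and Rpl39l and 98.6% for Rps27. How the authors' counting treated reads with several placements is not given in the sources used here, so single members with many copies are uncertain.

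The members differed more between libraries at 28 months than at 2 months. The ratio of the highest to the lowest library within a group had a median over members of 2.64 in the aged knockout, against 1.78 for other genes of like level. It was 2.47 in aged Pparafl/fl, against 1.89 for the other genes. In the young groups it was 1.43 in the knockout and 1.28 in Pparafl/fl, against 1.60 and 1.44 for the other genes. These are descriptions with no test. Replicate 4 of the aged knockout was the highest of its group in 76 of the 83 tested members (91.6%), where it was the highest in 21.5% of 5630 other genes of like level. Its level over the median of the other 4 aged knockout libraries was between 1.10 and 4.5 over members, with a median of 2.00, against 0.966 for the other genes. The 7 exceptions were Rpl28, Rpl3l, Rpl7a, Rplp1, Rps2, Rps27l and Rps27rt. Replicate 2 was the lowest of that group in 63 members (75.9%), against 16.7% of the other genes. In aged Pparafl/fl, replicate 1 was the highest in 56 members (67.5%), against 35.0% of the other genes, and replicate 3 the lowest in 50 (60.2%), against 40.4%, so both libraries stood apart over other genes too. Without replicate 4 of the aged knockout the median ratio there was 1.70, against 1.60 for other genes. Without replicate 3 of aged Pparafl/fl it was 1.60, against 1.59.

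Replicate 4 of the aged knockout differed from the rest of its group in marker sums as well. Its summed B and plasma cell markers reached 9985 CPM, against 132 to 3165 CPM in the other 4 libraries, and none of these markers was at 0 there. Most of that sum was Igkc, at 9276 CPM, and Igkc and Mzb1 were highest there. Cd79a, Cd79b, Jchain and Ms4a1 were higher in replicate 1 of the group (60.6, 110, 352 and 614 CPM) than in replicate 4 (45.3, 87.2, 267 and 187 CPM). The T and NK cell markers summed to 177 CPM, against 32.4 to 76.7 CPM. Macrophage markers summed to 3569 CPM in replicate 4, against 1220 to 2526 CPM, and all 8 of them were highest there in the group. Its adipocyte markers summed to 5419 CPM, against 13540 to 38530 CPM, the lowest of the group. Fasn made up most of that gap, at 1245 CPM against 7324 to 29760 CPM. Fabp4, Plin1, Cidec, Retn and Lipe were also lowest there, while Adipoq, Pck1, Cfd and Lep lay inside the range of the other 4 libraries. Named ribosomal protein pseudogenes summed to 634 CPM in it, the most of the 20 libraries. In replicate 3 of aged Pparafl/fl, 7.55% of counts were mitochondrial, against at most 0.907% in the other 19 libraries. The B and plasma cell markers of that library summed to 8819 CPM, also mostly Igkc (8617 CPM), while most members were lowest there in the group. Whether these features play a part in the ribosomal protein levels was not tested, so results below are also given without these libraries where that moves them.

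**Figure D2:**
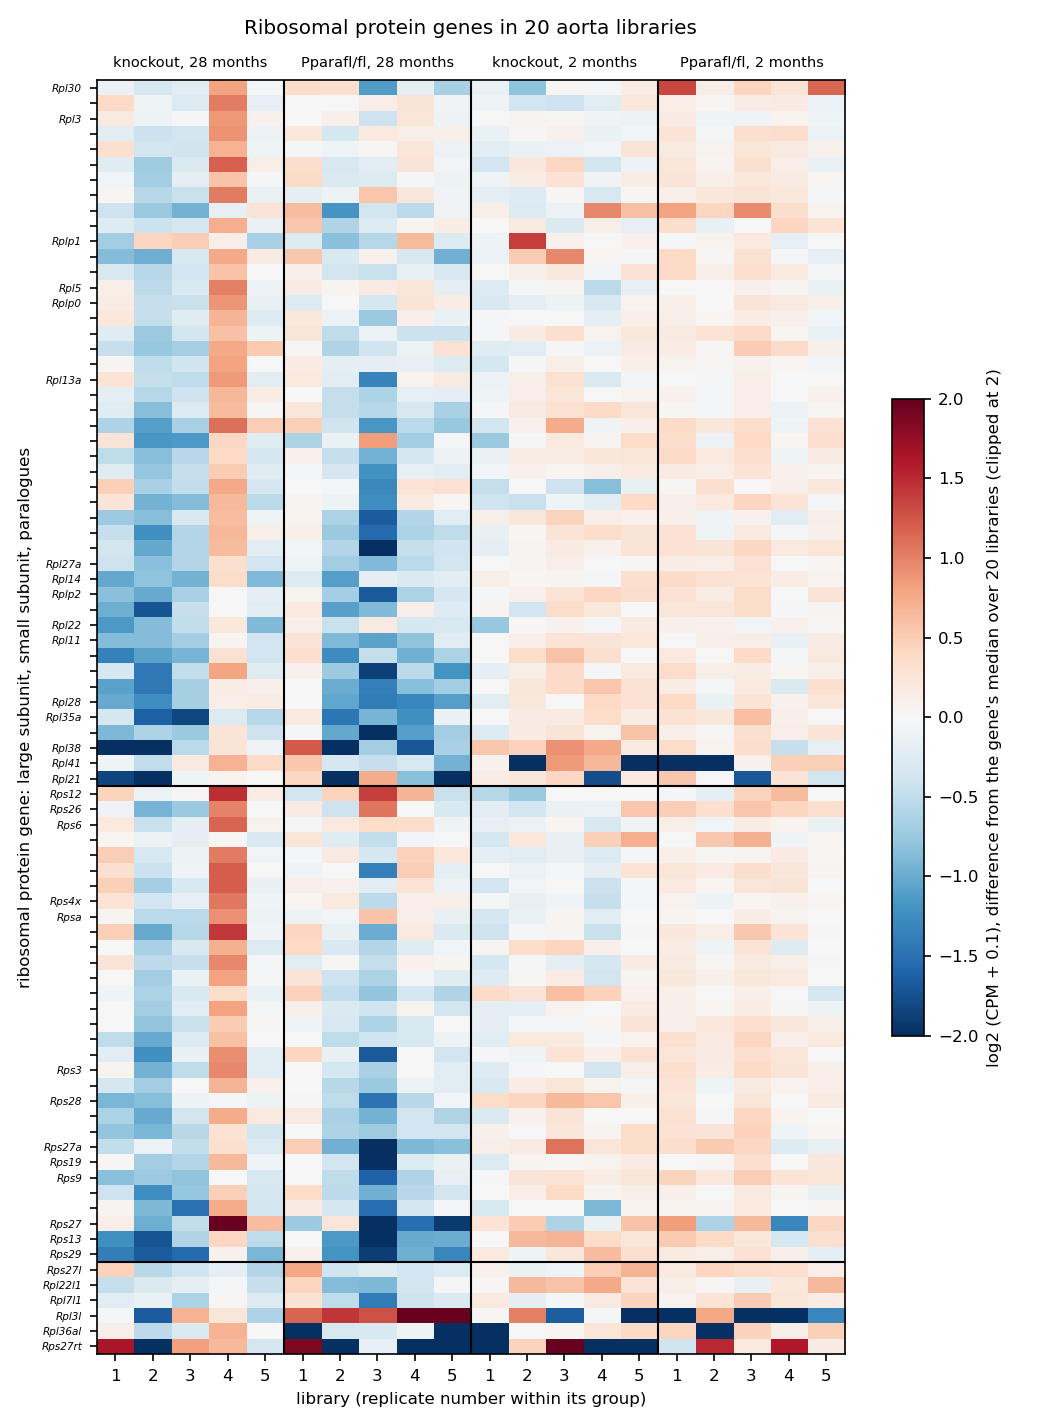
Each row is 1 of 83 tested ribosomal protein genes, some of them labelled, and each column 1 of 20 libraries, by group from left to right; colour is log2 (CPM + 0.1) minus the gene's median over the 20 libraries, clipped at 2. Replicate 4 of the aged knockout is above the median for most rows, replicate 2 of that group and replicate 3 of aged Pparafl/fl are below it, and the young columns differ little.

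With age in Pparafl/fl, most ribosomal protein genes were a little lower, and 1 passed the test. Rpl27a, a protein of the large subunit, fell by 0.59 on the log2 scale, which is 1.51-fold. Its gene ENSMUSG00000046364 lies on chromosome 7 from 109519147 to 109522367 (GRCm38). It was at 144, 95.2, 82.9, 106 and 119.6 CPM in aged Pparafl/fl, against 171, 168, 190.5, 154 and 158 CPM in young Pparafl/fl. The highest aged library lay below the lowest young one. The standard error was 0.145 and the adjusted p 0.0484 by the edgeR quasi-likelihood test with Benjamini-Hochberg adjustment over all genes tested. Under 16 other settings its adjusted p was between 0.00388 and 0.112, and under 0.05 in 3 of them. Of the 83 members 0 were called higher and 1 lower, where 2.06% of all genes were called higher and 2.48% lower.

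Of the 83, 73 had a negative log2 fold change and the median was -0.34, against 0.06 over all genes tested. The median was -0.32 in the large subunit, -0.36 in the small subunit and -0.52 in the paralogues. Only 6 paralogues were tested, with log2 fold changes between -0.99 and 3.21 and a median standard error of 0.61, against 0.23 in the large and 0.20 in the small subunit. At an unadjusted p under 0.05, 27 members were lower and 1 higher, where 10.4% of all genes were lower and 12.4% higher. Groups did not overlap in 9 members that were lower at 28 months (among them Rpl14, Rpl15, Rpl18, Rpl27a, Rpl9, Rps10, Rps3 and Rps9) and in 1 that was higher (Rpl3l), where 5.6% of all genes were separate and lower and 3.54% separate and higher. In whole tissue, fewer cells of a type and less RNA per cell cannot be told apart.

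The number of calls depended on replicate 1 of aged Pparafl/fl, in which most members were higher than in the rest of its group. Without it 28 members were called lower, where 5.9% of all genes were, and the median log2 fold change was -0.49. The members called also changed with replicate 3 left out. Then 2 were called lower, Rpl18 and Rps9 but not Rpl27a, where 2.34% of all genes were. There 74 members were negative and the median was -0.30. DESeq2 on all libraries called 12 lower and 1 higher, Rpl3l, where it called 5.71% of all genes lower and 8.4% higher. With TMM replaced by DESeq2 size factors or by total counts, 0 members were called.

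Rpl28, another large subunit protein, had the next smallest p of the members. It was at 85.04, 41.1, 32.0, 34.4 and 39.4 CPM in aged Pparafl/fl, against 112, 77.4, 103, 89.5 and 100.1 CPM in young Pparafl/fl. Replicate 1 of the aged group lay among the young libraries and the other 4 lay below them. Its log2 fold change was -1.03 (standard error 0.258, adjusted p = 0.0513, edgeR), and it was named after its values were seen. Rps13, a small subunit protein, had the lowest log2 fold change of the tested members at -1.18 (standard error 0.398, adjusted p = 0.115, edgeR). It was at 32.1, 14.3, 4.5, 15.8 and 16.1 CPM in aged Pparafl/fl, against 46.2, 41.7, 37.1, 25.0 and 39.97 CPM in young Pparafl/fl, and replicate 1 of the aged group overlapped the lowest young library.

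Of the proteins with known further roles, those of the stalk and the small subunit head stood lower without passing the test. Rplp2, a stalk protein bound by elongation factors, was at 166, 99.2, 49.7, 102 and 126 CPM in aged Pparafl/fl, against 194, 177, 204, 159.7 and 189 CPM in young Pparafl/fl (log2 fold change -0.74, standard error 0.247, adjusted p = 0.111, edgeR). Only replicate 1 of the aged group reached the range of the young one. Rps3, which sits at the mRNA entry and also takes part in DNA repair, was at 327, 256, 208, 326 and 282 CPM in aged Pparafl/fl, against 408, 362, 426, 389 and 355 CPM in young Pparafl/fl (log2 fold change -0.44, standard error 0.134, adjusted p = 0.0884, edgeR). These groups did not overlap.

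Rps29, a small zinc-binding protein of the small subunit, was at 46.5, 19.0, 11.8, 22.2 and 17.6 CPM in aged Pparafl/fl, against 49.6, 47.3, 54.0, 47.0 and 38.1 CPM in young Pparafl/fl (log2 fold change -0.99, standard error 0.311, adjusted p = 0.0962, edgeR). Replicate 1 of the aged group lay inside the young range. Rps27a, which is made as a fusion with ubiquitin, was between 6.34 and 50.4 CPM with a median of 19.1 CPM in aged Pparafl/fl, against 30.1 to 51.8 CPM with a median of 45.6 CPM in young Pparafl/fl (log2 fold change -0.85, standard error 0.428). These groups overlapped.

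Rps6 and Rpl5 were at like levels at both ages. Rps6, the small subunit protein phosphorylated by S6 kinase downstream of mTORC1, was at 252, 296, 336, 331 and 248 CPM in aged Pparafl/fl, against 282, 250.1, 288, 272 and 236 CPM in young Pparafl/fl (log2 fold change 0.18, standard error 0.142). Rpl5, which with Rpl11 and 5S rRNA can bind Mdm2 and stabilise p53, was between 249 and 337 CPM in aged Pparafl/fl, against 260 to 306 CPM in young Pparafl/fl (0.13, standard error 0.123). Both overlapped between ages. Rpl11 was between 95.9 and 241 CPM with a median of 115 CPM in aged Pparafl/fl, against 181 to 226 CPM with a median of 217 CPM in young Pparafl/fl, and these groups overlapped. Over the 26 tested genes of a panel that holds proteins with further roles and the paralogue pairs, 18 log2 fold changes were negative, with a range of -1.17 to 3.21.

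With age in the knockout, fewer members were lower, and 1 passed the test. Rpl22l1, the paralogue of the large subunit protein Rpl22, fell by 0.76 on the log2 scale, which is 1.69-fold. Its gene ENSMUSG00000039221 lies on chromosome 3 from 28805436 to 28807424 (GRCm38). It was at 14.0, 15.8, 17.2, 18.9 and 14.1 CPM in the aged knockout, against 19.8, 30.6, 28.9, 32.9 and 23.6 CPM in the young knockout, and the groups did not overlap. The standard error was 0.186 and the adjusted p 0.0477 (edgeR). Under 16 other settings the adjusted p was between 0.00208 and 0.135, and under 0.05 in 3 of them. Of the 83 members 0 were called higher and 1 lower, where 1.87% of all genes were called higher and 2.59% lower.

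In the knockout 49 of the 83 had a negative log2 fold change with age, with a median of -0.11, against 0.06 over all genes tested. The median was -0.24 in the large subunit, -0.01 in the small subunit and -0.13 in the 6 tested paralogues. At an unadjusted p under 0.05, 17 members were lower and 1 higher, where 11.2% of all genes were lower and 11.7% higher. Groups did not overlap in 3 members that were lower at 28 months (Rpl22l1, Rpl35a and Rps28) and in 0 that were higher, where 5.15% of all genes were separate and lower and 3.43% separate and higher.

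These counts depended on which libraries of the aged knockout were kept. With replicate 2 left out, 40 of the 83 were negative and the median was 0.04, against 0.05 over all genes tested. With replicate 4 left out, 9 members were called lower, where 1.12% of all genes were. There 71 were negative and the median log2 fold change was -0.40. The 9 were Rpl11, Rpl14, Rpl23, Rpl8, Rplp2, Rps13, Rps15, Rps29 and Rps9, and Rpl22l1 was not among them (adjusted p = 0.0629, edgeR). DESeq2 on all libraries called 7 lower, where it called 6.34% of all genes lower. With total counts as the scale the median of the members was 0.08, but that scale moved the median of all genes up by 0.19, and the members' median less that of all genes was -0.16 with either scale.

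The members with the lowest and highest log2 fold changes in the knockout rested on few libraries. Rpl38, a large subunit protein that in mouse embryos is needed for translation of Hox mRNAs, was at 6.79, 4.22, 20.4, 35.4 and 28.3 CPM in the aged knockout, against 43.2, 41.0, 56.2, 50.2 and 33.8 CPM in the young knockout (log2 fold change -1.23, standard error 0.514, adjusted p = 0.188, edgeR). Replicates 1 and 2 of the aged group were far below the other 3, and the highest of these overlapped the young group. Rps12, a small subunit protein, was at 117, 79.1, 87.7, 239 and 94.8 CPM in the aged knockout, against 58.0, 51.2, 85.03, 85.03 and 85.4 CPM in the young knockout (0.78, standard error 0.325, adjusted p = 0.188, edgeR). Replicate 4 of the aged knockout was above each other library of both groups, and replicate 2 of the aged group lay inside the young range.

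Several of the members that stood lower with age in Pparafl/fl also stood lower in the knockout. Rps29 was at 16.7, 13.7, 14.99, 46.7 and 23.1 CPM in the aged knockout, against 50.3, 41.3, 51.5, 67.7 and 54.7 CPM in the young knockout (log2 fold change -1.19, standard error 0.346, adjusted p = 0.0769, edgeR). Rplp2 was at 89.2, 78.7, 101, 158 and 138 CPM in the aged knockout, against 157, 168, 193, 211 and 202 CPM in the young knockout (-0.71, standard error 0.209, adjusted p = 0.0797, edgeR). In both genes replicate 4 of the aged knockout was the library that reached the young range. Rpl11 was between 109.6 and 210 CPM with a median of 124 CPM in the aged knockout, against 199 to 243 CPM with a median of 233 CPM in the young knockout (-0.67, standard error 0.199, adjusted p = 0.0822, edgeR). Rps27a was between 25.4 and 44.8 CPM in the aged knockout, against 38.8 to 75.8 CPM in the young knockout (-0.61, standard error 0.241). Rps6 was between 189.7 and 579.5 CPM in the aged knockout, against 209 to 267 CPM in the young knockout (0.41, standard error 0.284), and replicate 4 was its highest library.

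**Figure D3:**
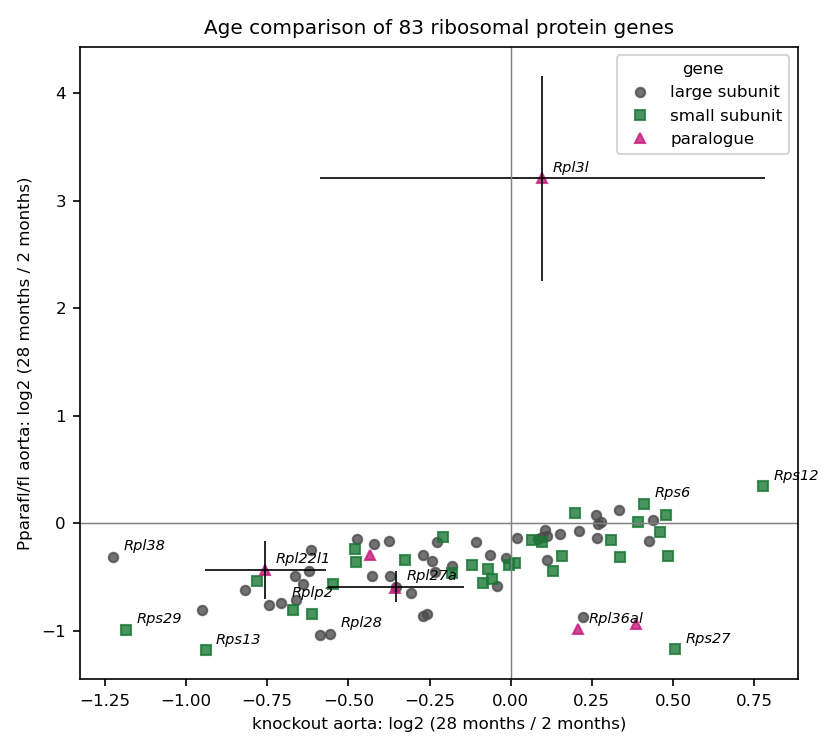
Log2 fold change from age (28 months over 2 months) of 83 ribosomal protein genes in the knockout (x axis) and in Pparafl/fl (y axis), by class; bars on Rpl27a, Rpl22l1 and Rpl3l are standard errors. The 2 axes come from separate libraries, 73 genes lie below 0 on the y axis and 49 below 0 on the x axis, and Rpl3l stands alone at 3.21 on the y axis.

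Between genotypes at 28 months no member was called, as no gene in the whole table was (0 of 21468, 0%, edgeR), although 689 genes (3.21%) had an unadjusted p under 0.05. Of the 83 members, 56 had a positive log2 fold change and the median was 0.14, against 0.01 over all genes tested. At an unadjusted p under 0.05, 1 member was higher and 1 lower in the knockout. The direction rested on replicate 4 of the aged knockout: without it 62 of 83 were negative and the median was -0.11. Without it and without replicate 3 of aged Pparafl/fl, 75 were negative and the median was -0.20. The groups did not overlap in 1 member, Rpl3l, where 0.578% of all genes were separate.

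Rps27, a zinc-binding small subunit protein, had the highest log2 fold change between genotypes at 28 months (1.65, standard error 0.674, adjusted p = 1.00, edgeR). It was at 40.9, 19.0, 26.6, 152 and 57.2 CPM in the aged knockout, against 22.6, 44.1, 4.79, 13.1 and 9.79 CPM in aged Pparafl/fl. Without replicate 4 of the aged knockout the log2 fold change was 0.92. The groups overlapped, and 98.6% of its 50-base words occur in another gene. Rpl22 was at 22.9, 27.9, 36.2, 59.6 and 27.7 CPM in the aged knockout, against 55.4, 37.7, 58.1, 39.97 and 40.8 CPM in aged Pparafl/fl (-0.44, standard error 0.28). In 4 of the 5 aged knockout libraries it lay below each aged Pparafl/fl library, and replicate 4 lay above them.

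Between genotypes at 2 months 0 members were called, where 1 of 20598 genes was (0.00485%, edgeR). DESeq2 also called 0 members, where it called 2.04% of all genes. At an unadjusted p under 0.05, 10 members were lower and 4 higher in the knockout, where 10.1% of all genes had such a p in either direction. Of the 83, 56 were negative and the median was -0.06, against 0.01 over all genes tested. The groups did not overlap in 1 member, where 2.55% of all genes were separate. Rpl30, a large subunit protein, had the lowest log2 fold change of the tested members at -0.84 (standard error 0.273, adjusted p = 0.362, edgeR). It was at 36.9, 23.0, 41.1, 39.5 and 44.4 CPM in the young knockout, against 102, 44.0, 54.3, 49.0 and 89.1 CPM in young Pparafl/fl, where replicates 1 and 5 stood apart from the other 3.

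Rps3 was at 272, 319, 329.6, 253 and 355 CPM in the young knockout, against 408, 362, 426, 389 and 355 CPM in young Pparafl/fl, with replicate 5 of each at nearly the same level (-0.31, standard error 0.108, adjusted p = 0.389, edgeR). Rplp0, which is also used as a reference gene in quantitative PCR, was at 530.5, 581, 616, 529 and 692 CPM in the young knockout, against 721, 665, 788, 745 and 709.5 CPM in young Pparafl/fl (-0.27, standard error 0.0946, adjusted p = 0.400, edgeR). Only replicate 5 of the knockout reached the range of Pparafl/fl. Rps26 was at 108, 97.1, 115, 116 and 187 CPM in the young knockout, against 179, 159.7, 186, 170.1 and 158 CPM in young Pparafl/fl (-0.42, standard error 0.161, adjusted p = 0.440, edgeR). Without replicate 5 of the young knockout Rps26 was the 1 member called lower, where 0.152% of all genes were; it was named after its values were seen.

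The test of whether the age effect differed between genotypes called 0 members and 0% of 23624 genes (edgeR), and 6.06% of genes had an unadjusted p under 0.05. Of the 83 members, 64 had a positive interaction, meaning a higher change with age in the knockout than in Pparafl/fl, and the median was 0.23, against 0.00 over all genes tested. The direction rested on replicate 4 of the aged knockout: without it 50 of the 83 were negative and the median was -0.04. DESeq2 also called 0 members, where it called 1.8% of all genes. At an unadjusted p under 0.05, 1 member was positive, Rpl30 (1.09, standard error 0.429, adjusted p = 0.763), and 1 was negative, Rpl3l (-3.10, standard error 1.21, adjusted p = 0.760). Rps27 had an interaction of 1.66 (standard error 0.820). The larger number of lower members in Pparafl/fl than in the knockout was therefore not shown to differ between genotypes for any single gene.

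Among the paralogue pairs, Rpl3l had another pattern over the groups than its partner. Rpl3l replaces Rpl3 in ribosomes of striated muscle, and its gene ENSMUSG00000002500 lies on chromosome 17 from 24727820 to 24736143 (GRCm38). It was at 4.08, 1.26, 6.88, 4.97 and 2.72 CPM in the aged knockout, against 9.53, 11.6, 10.3, 36.9 and 26.2 CPM in aged Pparafl/fl. It was at 4.28, 8.55, 1.28, 4.14 and 0.503 CPM in the young knockout, against 0.591, 7.26, 0.812, 0.103 and 1.64 CPM in young Pparafl/fl. Each aged Pparafl/fl library was above each library of the other 3 groups.

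The log2 fold change of Rpl3l with age in Pparafl/fl was 3.21, or 9.23-fold (standard error 0.955, adjusted p = 0.0857, edgeR), and under 16 other settings it was between 2.82 and 4.60 and called in 3. With age in the knockout it was 0.10 (standard error 0.686), between -0.19 and 0.64 when each library was left out. The genotype difference of Rpl3l was -2.25 at 28 months (standard error 0.538, adjusted p = 1.00, edgeR), called by DESeq2 (adjusted p = 0.00393), which called 0.892% of all genes there in either direction. It was 0.89 at 2 months (standard error 1.01). Rpl3, the partner found in all cells, was between 422 and 825 CPM in the aged knockout and between 338 and 532 CPM in aged Pparafl/fl. It was between 419.5 and 471 CPM in the young knockout and between 424 and 506 CPM in young Pparafl/fl.

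Markers of skeletal muscle moved with Rpl3l. The sum of 15 such markers was between 525 and 5174 CPM in the aged knockout and between 3357 and 24150 CPM in aged Pparafl/fl. It was between 35.1 and 5742 CPM in the young knockout and between 39.0 and 3715 CPM in young Pparafl/fl. All 15 were above 0 in every aged library. Pvalb, Tnnc2, Tnni2 and Myh2 were at 0 in at least 1 young knockout library, and Pvalb and Myoz1 in at least 1 young Pparafl/fl library. With age in Pparafl/fl 2 of the 15 were called higher, and their median log2 fold change was 3.33, close to that of Rpl3l; in the knockout 0 of 15 were called and the median was 0.31. The part of skeletal muscle RNA in the level of Rpl3l was not tested.

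**Figure D4:**
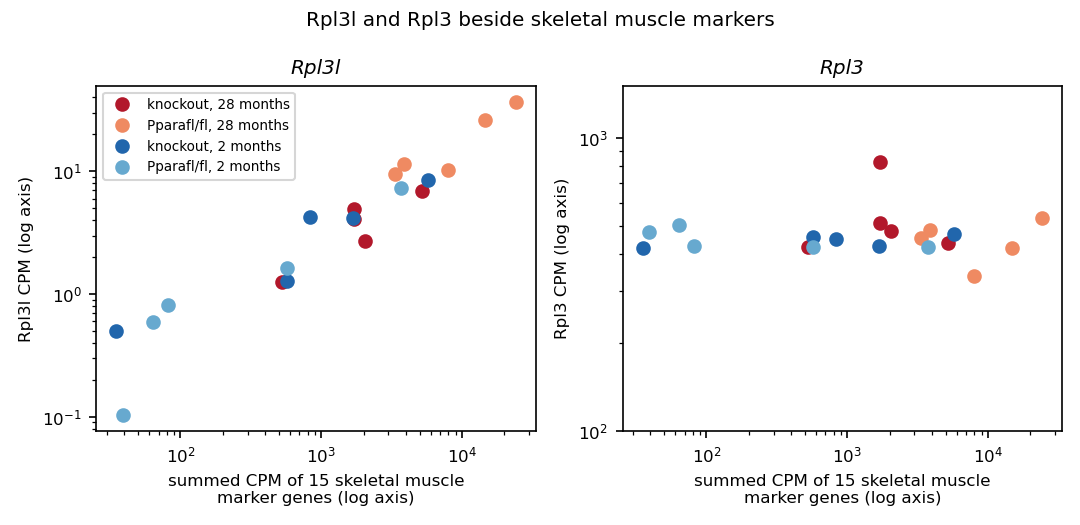
CPM of Rpl3l (left) and Rpl3 (right) against the summed CPM of 15 skeletal muscle marker genes in 20 libraries, all on log axes, coloured by group. Libraries with more marker RNA had more Rpl3l, with aged Pparafl/fl at the upper right, while Rpl3 stayed between 338 and 825 CPM.

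Rpl22l1 and Rpl22 were not mirror images with age. Rpl22, an RNA-binding large subunit protein that in mouse represses Rpl22l1 mRNA, was at 22.9, 27.9, 36.2, 59.6 and 27.7 CPM in the aged knockout, against 30.2, 52.3, 54.3, 50.1 and 57.2 CPM in the young knockout (log2 fold change -0.47, standard error 0.283, adjusted p = 0.356, edgeR). In Pparafl/fl, Rpl22l1 was at 26.1, 10.6, 10.3, 14.97 and 19.2 CPM at 28 months, against 21.04, 19.7, 17.5, 22.6 and 30.6 CPM at 2 months (-0.43, standard error 0.271). Rpl22 there was between 37.7 and 58.1 CPM at 28 months, against 49.2 to 55.0 CPM at 2 months (-0.15, standard error 0.164). The log2 fold changes of both genes were negative in both genotypes, and all groups except those of Rpl22l1 in the knockout overlapped. Rps27l, a paralogue of Rps27 induced by p53, was between 25.3 and 52.3 CPM in the aged knockout and between 28.7 and 64.8 CPM in aged Pparafl/fl. It was between 34.5 and 60.6 CPM in the young knockout and between 41.7 and 50.9 CPM in young Pparafl/fl. Rpl7l1, a paralogue of Rpl7, was between 34.7 and 54.4 CPM in the aged knockout and between 20.3 and 65.4 CPM in aged Pparafl/fl, against 47.0 to 73.1 CPM in the young knockout and 56.5 to 76.5 CPM in young Pparafl/fl.

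Some members differed many-fold between libraries of 1 group. Rps27rt, a single-exon copy of Rps27 on chromosome 9 from 114982366 to 114982739, was at 53.2, 0, 30.2, 26.7 and 13.4 CPM in the aged knockout, against 62.5, 0, 15.3, 0 and 0 CPM in aged Pparafl/fl. It was at 0, 23.2, 71.8, 0 and 0 CPM in the young knockout, against 12.9, 48.4, 19.6, 52.3 and 19.1 CPM in young Pparafl/fl. It was at 0 in 7 of the 20 libraries, and 91.1% of its 50-base words occur in another gene. Rpl36al was at 43.6, 28.0, 32.7, 64.8 and 40.3 CPM in the aged knockout, against 1.89, 32.1, 32.5, 37.9 and 0.633 CPM in aged Pparafl/fl. It was at 1.67, 39.9, 41.3, 47.5 and 53.0 CPM in the young knockout, against 54.1, 7.95, 54.9, 43.4 and 55.6 CPM in young Pparafl/fl. These 4 low libraries in 3 groups stood apart from a band between 28.0 and 64.8 CPM.

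Rpl21 was between 0.203 and 14.47 CPM in the aged knockout, a ratio of 71.3, and between 0.580 and 23.2 CPM in aged Pparafl/fl, a ratio of 40.04. It was between 3.95 and 18.4 CPM in the young knockout, against 4.22 to 20.2 CPM in young Pparafl/fl, so its values under 1 CPM were all in aged libraries. Rpl41, the smallest ribosomal protein, was at 106, 80.4, 128, 182 and 147 CPM in the aged knockout and at 164, 89.6, 82.2, 90.3 and 58.7 CPM in aged Pparafl/fl. It was at 119.6, 19.96, 203, 178 and 17.6 CPM in the young knockout, against 16.7, 22.1, 120.1, 156 and 156 CPM in young Pparafl/fl, with 2 low libraries in each young group and none in the aged groups. For these members 26.2% (Rpl21), 53.1% (Rpl41) and 63.3% (Rpl36al) of 50-base words occur in another gene, and whether reads were assigned to those copies was not tested.

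**Figure D5:**
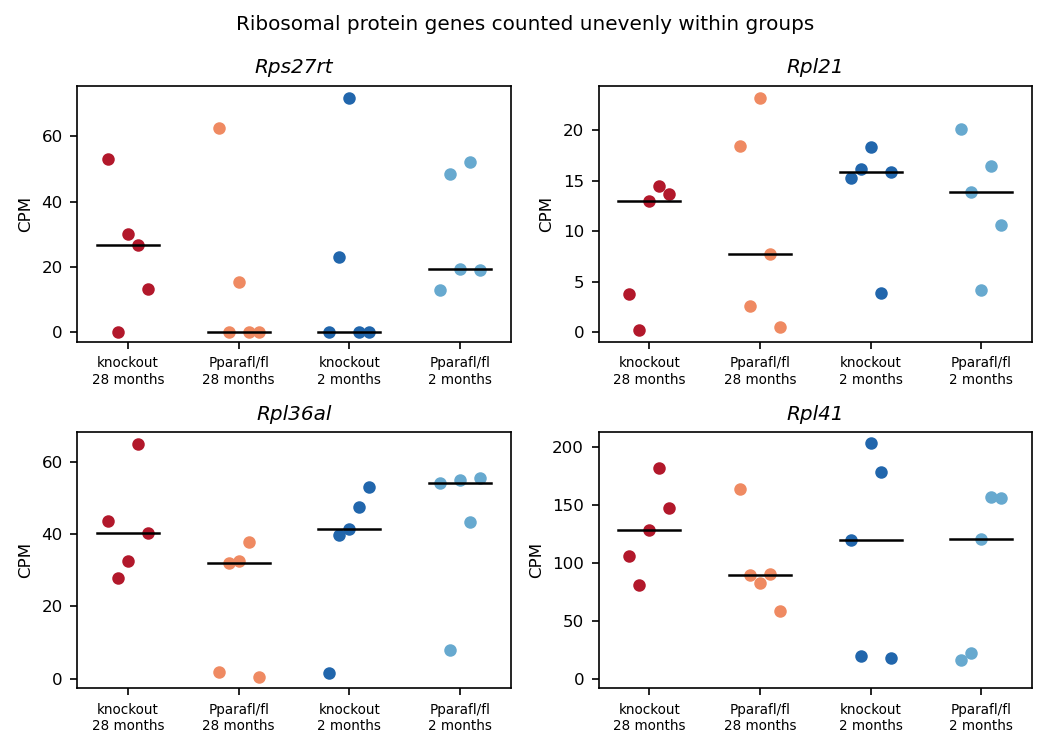
CPM of Rps27rt, Rpl21, Rpl36al and Rpl41 in each library (points) by group, with group medians (bars). Low libraries stand beside far higher ones of the same group: for Rps27rt and Rpl36al in aged and young groups, for Rpl21 mostly in the aged groups, and for Rpl41 in the young groups, at 16.7 to 22.1 CPM.

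The change with age was set beside the length and level of the gene. Over the 83 tested members, which share libraries and scaling, the log2 fold change with age in Pparafl/fl had a Spearman coefficient of 0.353 and a Pearson coefficient of 0.454 with coding length, and the coefficients in the knockout were 0.26 and 0.274. With the level the Spearman and Pearson coefficients were 0.463 and 0.215 in Pparafl/fl, and 0.476 and 0.461 in the knockout. With the share of words found in other genes they were 0.0877 and -0.142 in Pparafl/fl, and 0.147 and 0.118 in the knockout. Among coding lengths of at most 300 bases, 11 members had a median log2 fold change of -0.54 in Pparafl/fl, against -0.26 for 232 other genes of that length. Between 600 and 900 bases 20 members had a median of -0.23, against -0.10 for other genes. In the knockout the 11 shortest members had a median of -0.31, against -0.32 for other genes, and the 20 between 600 and 900 bases had 0.10, against -0.07. Short genes other than ribosomal protein genes also had negative medians in both genotypes.

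Genes that work with ribosomal proteins were followed in lists. Fau, which encodes a ribosomal protein fused to a ubiquitin-like one, and Rack1, a scaffold on the small subunit, were not called in any comparison. Of 18 tested TOP mRNAs that encode no ribosomal protein, such as translation factors, 14 were negative with age in Pparafl/fl with a median of -0.21, and 1 was called lower (where 2.48% of all genes were), the intermediate filament gene Vim (-0.93, standard error 0.214, adjusted p = 0.0385, edgeR). In the knockout 0 of them were called. Of 38 tested ribosome assembly genes, 0 were called with age in Pparafl/fl and 2 in the knockout, both lower (5.26%, where 2.59% of all genes were called lower and 4.46% in either direction). These were Ubtf, a factor of RNA polymerase I (-0.63, standard error 0.117, adjusted p = 0.0221, edgeR), and Rrp9, a protein of the U3 particle that processes ribosomal RNA (-0.86, standard error 0.214, adjusted p = 0.0494, edgeR). Of 18 regulators of ribosome production and TOP translation, 0 were called with age in Pparafl/fl, and 1 was lower in the knockout, Eif4ebp1, an mTORC1 target that restrains translation initiation (-1.92, standard error 0.384, adjusted p = 0.0268, edgeR). With 1 or 2 calls a list, nothing is read from these shares. No gene of these lists was called between genotypes or in the interaction.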

How the data were processed

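The authors deposited, in workbook tables for pairs of groups, gene counts that are whole numbers and not normalized. Per the submitters' processing notes, HISAT and featureCounts 1.5.0-p3 were used on GRCm38, and DESeq 1.8.3 for their own comparisons, which were not used here. A stranded KAPA kit was used per the labels' protocols; whether counting used strand, and how reads with several placements were treated, is not given in the sources used here. The protocol text names islets as the RNA source once, while all samples are labelled aorta. A library's counts were identical in both tables that hold it (20 of 20), and 99.5% of the 55421 genes matched GENCODE M21, used for names of exons, lengths and coordinates.

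Counts were analysed in R 4.3.3 with edgeR 4.0.16 and limma 3.58.1. Pairwise comparisons used their own 10 libraries, TMM scaling, filterByExpr and a quasi-likelihood F test (two-sided); the interaction used 20 libraries. A call is an adjusted p under 0.05 by Benjamini-Hochberg over all genes tested. The standard error was taken as log2 fold change over the square root of F. Alternatives were DESeq2 1.42.0 with its Wald test, its size factors, total counts, no filter, a minimum mean of 50 counts, a minimum of 2-fold, all 20 libraries in 1 fit, and leaving out each library; leaving out a library for the shares and leaving out 2 libraries together were added after the data were seen. No pseudocount choice applied to the tests. The fits were tested on simulated data.

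The members and lists were chosen with earlier results of these data known. Members named were a panel of 29 genes (28 in the tables, 26 tested), those called, those with the lowest and highest log2 fold change, the 5 highest and lowest in level and the most uneven in counts; others were chosen after their values were seen, such as Rpl28 and Rps26. Other genes of like level are those with a median between 32.8 and 378 CPM. A few genes are withheld for evaluations, and their values are not reported here.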

Additional observations from a re-analysis of the deposited data

Results flagged for a closer look

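In 27 of 164 sets of 5 libraries examined, over 40 members and the share of counts, the highest or lowest library was far from the other 4 by Dixon's ratio at the 95% level. Chance flags about 1 in 20 sets that are independent and not selected. Part of the 40 members were named for extreme or uneven values in these data, and all sets share the same 20 libraries. That rate is therefore no reference for the 27. No cause was tested.

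Replicate 4 of the aged knockout was the far library 8 times, always high. Its share of counts in ribosomal protein genes was 2.71%. Its levels were 825 CPM for Rpl3, 70.5 for Rpl30, 239 for Rps12, 152 for Rps27, 46.7 for Rps29, 579.5 for Rps6 and 962 for Rpsa, the laminin-binding small subunit protein. Replicate 1 of that group was high in Rps27l at 52.3 CPM. In aged Pparafl/fl, replicate 1 was high in Rpl28 (85.04 CPM), Rpl38 (69.9), Rps27l (64.8) and Rps27rt (62.5). Replicate 3 was high in Rps26 (267 CPM) and low in Rps4x (366), and replicate 4 was high in Rplp1 (120.1 CPM).

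In the young knockout, replicate 1 was low in Rpl22 (30.2 CPM) and Rpl36al (1.67), and replicate 4 was low in Rpl21 (3.95) and Rps4x (383). Replicate 2 was high in Rplp1 (200.4 CPM), replicate 3 in Rps27a (75.8) and replicate 5 in Rps26 (187). In young Pparafl/fl, replicate 2 was low in Rpl36al (7.95 CPM) and Rps4x (491) and high in Rpl3l (7.26), and replicate 3 was high in Rpl13a (571). No member's age effect was called different between genotypes by the interaction test.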

How the results depend on the processing

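With age in Pparafl/fl, the count of members called higher, 0 as reported, was 1 with DESeq2 and in 1 fit of 20 libraries, and 0 to 1 when each library was left out. The count called lower, 1 as reported, was 0 with a 2-fold minimum, DESeq2 size factors, total counts or no filter. It was 12 with DESeq2, 2 with a mean of at least 50 counts, 2 in 1 fit of 20 libraries and 0 to 28 leaving out each library. With age in the knockout, the count called lower, 1 as reported, was 0 with a 2-fold minimum, size factors, total counts or no filter, 7 with DESeq2 and 0 to 9 leaving out each library. Between genotypes at 28 months DESeq2 called 1 member lower, and at 2 months leaving out each library gave 0 to 1. The log2 fold change of Rpl3l with age in the knockout was between -0.19 and 0.64 leaving out each library. Counting only members with under 50% shared words, median shares of counts were 0.626% in the aged knockout, 0.617% in aged Pparafl/fl, 0.628% in the young knockout and 0.694% in young Pparafl/fl. Over protein-coding counts without the 50 most counted genes they were 1.69% in the aged knockout, 1.61% in aged Pparafl/fl, 1.60% in the young knockout and 1.72% in young Pparafl/fl. The cause was not tested. Of 722 values compared over settings, 656 were classed as the same. Log2 fold changes of single members were classed by direction and side of the threshold. Medians and levels were classed by a shift within a standard deviation between libraries, so a median could change sign and count as the same. Between genotypes at 28 months the median went from 0.14 to -0.11 without replicate 4 of the aged knockout. The counts of members called were not among the 722. No paired analysis was possible because the labels give no replicate numbers. Depth limits Rpl10l and Rpl39l, and also libraries in which tested members were at or near 0, such as Rps27rt (0 in 7 libraries), Rpl3l (lowest count 6) and Rpl21 (lowest count 13).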
